A study of Mus musculus with 2 samples.

Results

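Genes of platelet-derived growth factor (PDGF) and vascular endothelial growth factor (VEGF) signalling were followed across the cell types of fetal mouse lung. The 10 genes were 5 ligands (Pdgfa, Pdgfb, Pdgfc, Pdgfd and Vegfa) and 5 receptors (Pdgfra, Pdgfrb, Kdr, Flt1 and Flt4), taken by name from the 32285 gene features of each library. Nuclei came from wild-type fetal lungs of gestation day 18 (E18), and RNA and accessible chromatin were read from the same nucleus. The study asked how asthma of the mother changes the lungs of the fetus, with group 2 innate lymphoid cells (ILC2s) at its centre. Mothers were 6 to 8 weeks old when sensitized by intraperitoneal injection with alum alone (PBS group) or with alum and 100 µg of ovalbumin (OVA group). They were then mated with untreated males and given PBS or 500 µg of OVA through the nose at intervals between gestation days 4 and 17. The sort took EpCAM+ epithelium, CD45+ immune cells and, among lineage-negative CD45+ cells, the ST2+ ILC2s, and nuclei were prepared from the mixture. Each group was 1 library, from 9 pooled fetuses (PBS) or 8 pooled fetuses (OVA), and per the study each pool came from a single dam. With no replicate library no test between groups was possible, so the values below compare these libraries, and every interval is a 95% interval for counting error only.

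PDGF ligands are dimers of A, B, C or D chains that act on the receptor tyrosine kinases PDGFRα and PDGFRβ. In the developing lung, epithelial PDGF-A acts on PDGFRα-bearing fibroblasts that give rise to the myofibroblasts of the forming alveolar septa, and endothelial PDGF-B recruits PDGFRβ-bearing pericytes to capillaries. VEGF-A is made by lung epithelium and signals to endothelium through VEGFR2 (Kdr), while VEGFR1 (Flt1) binds the same ligand and largely restrains it, and VEGFR3 (Flt4) serves lymphatic and developing blood endothelium through VEGF-C and VEGF-D.

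The libraries held 8019 (PBS) and 5960 (OVA) barcodes with 11473351 and 13774959 gene unique molecular identifiers (UMIs), of which mitochondrial genes took 45.2% and 29.2%. After filtering and removal of doublet calls 4279 and 4996 nuclei remained, with medians of 649 and 1213.5 UMIs from nuclear genes. A nucleus was gated to a type when at least 3 of the type's 8 markers were detected and at least 2 more than of any other type, and none of the 10 genes was a marker. This gated 1258 PBS nuclei (29.4%) and 2012 OVA nuclei (40.3%). The gates of at least 20000 nuclear-gene UMIs in each library were ILC2, macrophage, alveolar type 1 (AT1), alveolar type 2 (AT2), secretory airway, ciliated, endothelial, alveolar fibroblast, myofibroblast, smooth muscle and pericyte. A gate is a range of a score, and the share of its nuclei that only just met the rule (exactly 3 markers, or a lead of exactly 2) ran from 15.4% (AT2, OVA) over 61.4% (alveolar fibroblast, PBS) to 76.0% (myofibroblast, OVA) among the 5 gates of at least 50 nuclei per library. Ptprc, which encodes CD45, was at 774 and 819 CPM (counts per 1000000 nuclear-gene UMIs) in ILC2-gated nuclei and at most 91.3 CPM in any compared epithelial, endothelial or stromal gate. Fibroblast, myofibroblast and pericyte nuclei were present although the labels and the study's methods name no stromal sort for fetal lungs. A passage of the study also names a PDGFRβ+ sort for both ages, and its reporting form defines sorted fibroblasts by CD140a, which is PDGFRα, without giving an age. Whether Pdgfra or Pdgfrb helped to choose these cells is therefore not settled, and no share of gated nuclei is read as a share of the lung. Endothelium was not sorted and gave only 6 (PBS) and 15 (OVA) gated nuclei. The libraries shared 54 barcodes by sequence, which were treated as different nuclei.

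The bases just upstream of a gene's start show what the accessible chromatin of these genes covered. The 250 bases before the RefSeq start on GRCm38.p6 are given, 5′ to 3′ on the gene's strand, for both main epithelial ligands and for a receptor of each family whose values are described below. Capitals mark matches on either strand to 4 motifs. These were the GC box, spelled GGGCGG, and the core shared by hypoxia-response elements, spelled ACGTG. The others were the core of sites for ETS factors, spelled CGGAAG, and the TATA box, spelled TATAAA.
Vegfa: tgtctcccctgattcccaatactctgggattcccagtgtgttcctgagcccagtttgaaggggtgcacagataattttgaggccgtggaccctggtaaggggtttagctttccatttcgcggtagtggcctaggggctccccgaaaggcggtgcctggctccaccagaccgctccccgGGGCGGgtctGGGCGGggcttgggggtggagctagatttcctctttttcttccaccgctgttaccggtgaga
Pdgfa: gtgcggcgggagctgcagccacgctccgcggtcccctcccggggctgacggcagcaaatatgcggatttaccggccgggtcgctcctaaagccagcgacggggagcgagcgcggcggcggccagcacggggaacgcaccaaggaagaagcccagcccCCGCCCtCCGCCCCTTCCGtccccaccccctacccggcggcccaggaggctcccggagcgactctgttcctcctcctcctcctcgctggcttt
Pdgfra: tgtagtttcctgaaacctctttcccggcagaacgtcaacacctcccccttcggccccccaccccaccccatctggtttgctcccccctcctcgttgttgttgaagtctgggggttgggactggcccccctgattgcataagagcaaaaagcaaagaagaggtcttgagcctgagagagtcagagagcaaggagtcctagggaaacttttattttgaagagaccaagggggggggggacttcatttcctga
Kdr: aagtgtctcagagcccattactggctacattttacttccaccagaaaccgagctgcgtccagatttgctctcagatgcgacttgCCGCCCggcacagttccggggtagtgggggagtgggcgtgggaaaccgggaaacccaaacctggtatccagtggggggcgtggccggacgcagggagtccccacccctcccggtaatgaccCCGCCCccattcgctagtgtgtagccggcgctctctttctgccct
Flt1: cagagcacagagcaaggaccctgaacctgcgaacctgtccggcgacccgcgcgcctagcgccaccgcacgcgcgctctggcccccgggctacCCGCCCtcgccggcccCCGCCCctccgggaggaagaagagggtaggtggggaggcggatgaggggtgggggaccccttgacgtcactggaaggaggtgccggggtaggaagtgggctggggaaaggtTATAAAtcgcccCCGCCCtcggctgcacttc
RefSeq gave 2 starts each for Vegfa and Pdgfa, and the window under an accessibility peak is shown. The other Vegfa window (chr17:46025164-46025413) held 1 GC box and 1 hypoxia-response core, the other Pdgfa window (chr5:138994282-138994531) held 1 GC box, and no peak of either library reached them. The Vegfa window shown (chr17:46032378-46032627, minus strand) was 59.2% G or C and held 2 GC boxes, and the Pdgfa window (chr5:138994945-138995194, minus strand) was 72.4% G or C with 2 GC boxes directly beside an ETS core. The Pdgfra window (chr5:75152001-75152250, plus strand) was 54.4% G or C and held none of these letters. The Kdr window (chr5:75978456-75978705, minus strand) held 2 GC boxes, and the Flt1 window (chr5:147726012-147726261, minus strand) held 3 GC boxes and a TATA box. Among all 32851 windows of this length the median was 52.4% G or C, and 32.7% held a GC box, 16.6% a hypoxia-response core, 13.6% an ETS core and 12.4% a TATA box. An accessibility peak overlapped the Vegfa and Pdgfa windows shown, which were chosen for it, and the Kdr and Flt1 windows, in both libraries. The Pdgfra window lay under a peak called in the PBS library (chr5:75151864-75152673), whereas no called peak of the OVA library reached it. Each library had its own peak set, of 134977 (PBS) and 120379 (OVA) peaks, so this is not read as a difference in accessibility. A match is only a run of letters in the window.

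The gate with the highest level differed between genes, and the endothelial gate held both receptors and a ligand. Vegfa was highest in AT1-gated nuclei, Pdgfa in ciliated- and AT1-gated nuclei, Pdgfra in myofibroblast-gated nuclei, Pdgfrb in pericyte-gated nuclei, and Flt1, Kdr and Pdgfd in endothelial-gated nuclei. Of the 10 genes, 9 had at least 100 UMIs over both libraries, and Flt4 with 21 (PBS) and 39 (OVA) UMIs did not. The same gate led in both libraries for 7 of these 9 genes, against 34.6% of the 10641 genes of at least 100 UMIs. In both libraries the lead over the next gate was at least 2-fold for 5 of 9 (Pdgfd, Pdgfra, Pdgfrb, Vegfa and Flt1), against 6.97% of those genes. That count fell to 3 when nuclei over 10000 nuclear-gene UMIs were left out, because the endothelial gate then no longer reached 20000 UMIs. Ungated nuclei held 34.02% to 86.2% of the UMIs of each of the 10 genes, so the gated levels rest on part of the data.

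**Figure D1:**
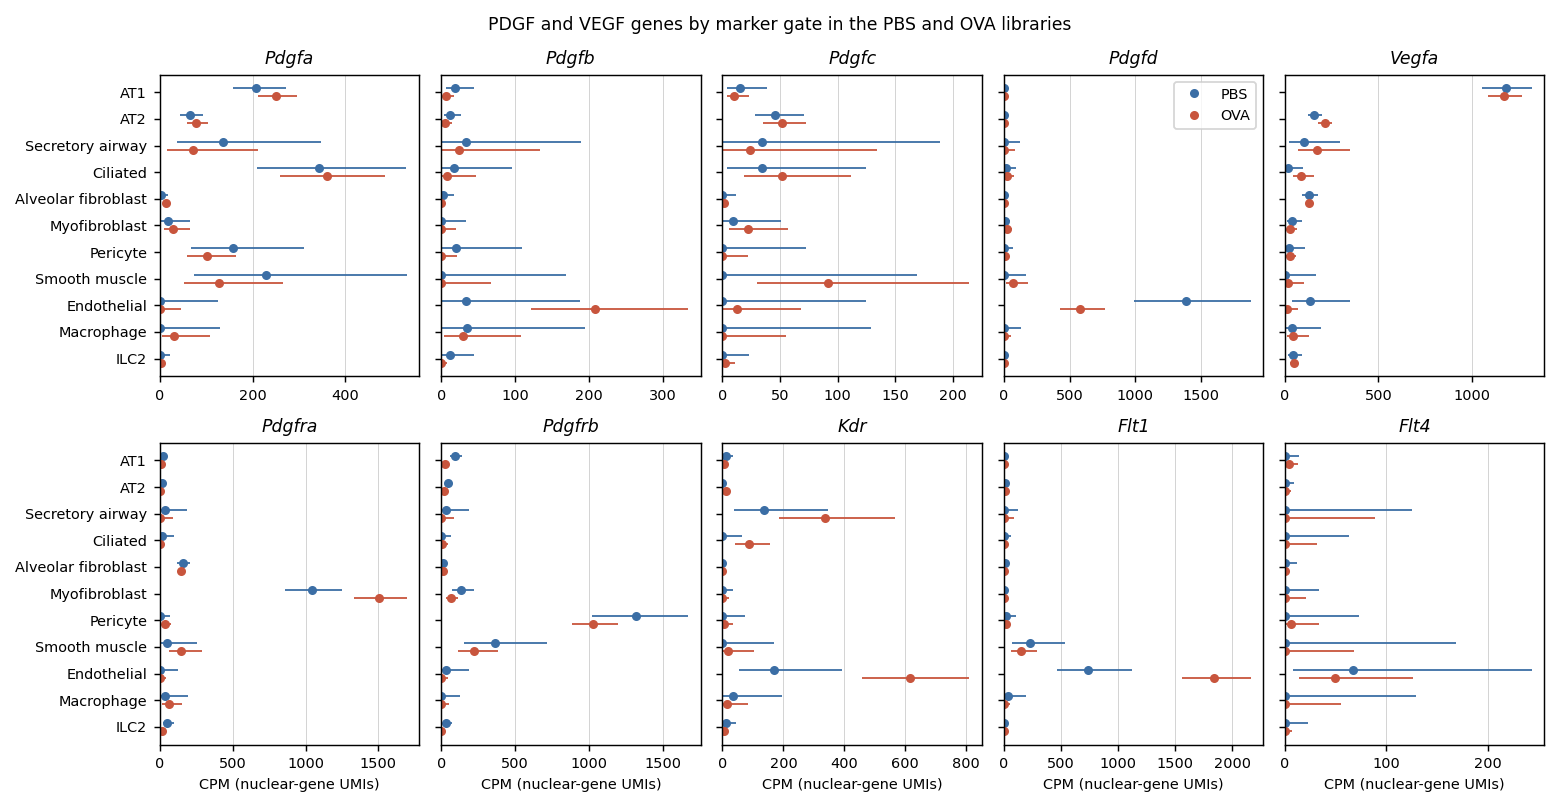
Level of each of the 10 genes (x axis, counts per 1000000 nuclear-gene UMIs, CPM; scales differ between panels) in the 11 compared gates (y axis) of the PBS and OVA libraries, with exact 95% Poisson intervals of counting error. Vegfa sits at 1185 and 1176 CPM in AT1, Pdgfra above 1000 CPM in myofibroblasts and Pdgfrb above 1000 CPM in pericytes, while the wide endothelial intervals rest on 6 and 15 nuclei.

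Vegfa, the main ligand of vascular growth, was carried by AT1-gated nuclei at 1185 CPM (95% interval 1057 to 1324, 313 UMIs) in the PBS library and 1176 CPM (1089 to 1268, 675 UMIs) in the OVA library. AT2-gated nuclei had 155 CPM (121 to 197) and 213 CPM (179 to 253), and alveolar fibroblast-gated nuclei had 130 CPM (93.4 to 176) and 131 CPM (112 to 151). AT1 was therefore 7.63-fold (PBS) and 5.51-fold (OVA) above AT2, with log2 ratios of 2.93 (2.55 to 3.33) and 2.46 (2.19 to 2.74). Secretory airway-gated nuclei had 102 CPM (3 UMIs) and 169 CPM (7 UMIs), and endothelial-gated nuclei 135 CPM (4 UMIs) and 12.3 CPM (1 UMI). AT2 and alveolar fibroblasts lay closer together than AT1 and AT2. AT2 exceeded alveolar fibroblasts by a log2 ratio of 0.71 (0.37 to 1.04) in the OVA library, while in the PBS library the ratio of 0.26 (-0.32 to 0.85) did not separate from 0. ILC2-gated nuclei were lower, at 43.0 and 45.7 CPM. Ciliated-gated nuclei of the OVA library had 85.6 CPM from 10 UMIs.

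The AT1 signal was spread over nuclei and was not made by a few of them. At least 1 Vegfa UMI was found in 61.5% (PBS) and 77.7% (OVA) of AT1-gated nuclei, whose median depths were 814 and 1615 nuclear-gene UMIs, and the nucleus with the most held 18 of 313 and 14 of 675 UMIs. At a common depth of 500 nuclear-gene UMIs, reached by random thinning, Vegfa was found in 45.8% (37.1 to 54.7, 131 nuclei) and 44.7% (38.3 to 51.1, 244 nuclei) of AT1-gated nuclei. The same share was 8.83% and 8.98% in AT2, 5.91% and 5.89% in alveolar fibroblasts, and 1.42% and 2.23% in ILC2s, the background used here. Unthinned, ILC2-gated nuclei with a Vegfa UMI were 2.59% and 4.84%, at median depths of 558.5 and 946. Thinning left out 38 (PBS) and 30 (OVA) AT1-gated nuclei that were too shallow.

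Vegfa was also compared across the number of AT1 markers detected in a nucleus, without the gate. From 1 marker on, only nuclei with more AT1 markers than markers of any other type were counted. The group with none held 3449 (PBS) and 3981 (OVA) nuclei of whatever type. Nuclei with none of the 8 AT1 markers had 70.4 and 75.3 CPM, those with 3 had 1091 (PBS) and 745 (OVA) CPM, those with 4 had 1258 and 1198 CPM, and those with at least 5 had 1087 and 1164 CPM. From 3 markers on, the intervals of these levels overlapped within each library. Clustering without gates gave 2 AT1-like clusters. The cluster led by Rtkn2, Clic5 and Aqp5 had 970 and 1028 CPM of Vegfa, and the other, led by Gpm6a, Itgb6 and Col4a3, had 995 and 944 CPM. Counted by AT2 markers in the same way, Vegfa did not rise steadily. It was at 112 and 106 CPM at no AT2 marker, a group of 2933 and 3541 nuclei of whatever type. Among nuclei led by AT2 markers it was at 85.8 CPM (5 UMIs) and 25.0 CPM (1 UMI) at 4, and at 287 and 298 CPM at 5 or more. The last group held 131 and 202 UMIs, against 68 and 133 in the AT2 gate, so much of its level came from nuclei outside the gate.

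**Figure D2:**
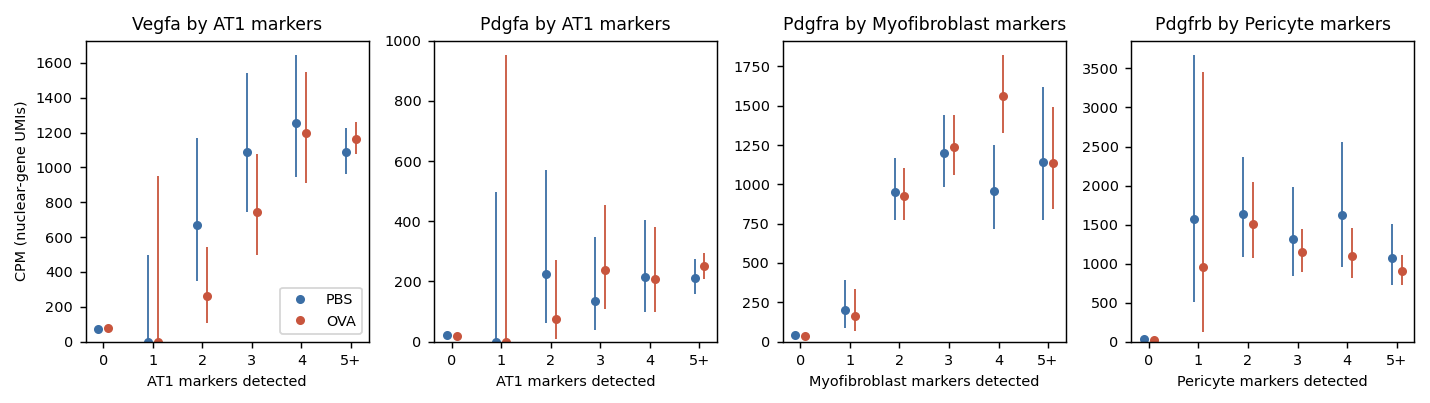
Level (y axis, CPM of nuclear-gene UMIs, with exact 95% Poisson intervals) of Vegfa and Pdgfa by the number of AT1 markers, of Pdgfra by myofibroblast markers and of Pdgfrb by pericyte markers detected in a nucleus (x axis), in the PBS and OVA libraries. Vegfa rises from 70.4 and 75.3 CPM at no AT1 marker to between 1087 and 1258 CPM at 4 and at 5 or more, and Pdgfra from 44.2 and 36.8 CPM at no myofibroblast marker to above 900 CPM at 2 or more. Points at no marker hold nuclei of whatever type, and the other points only nuclei led by the markers of the type shown.

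Pdgfa, which encodes the ligand of PDGFRα, was an epithelial transcript in both libraries but was also found in mural cells. Ciliated-gated nuclei had 344 CPM (210 to 531, 20 UMIs) and 360 CPM (259 to 486, 42 UMIs), although a single OVA nucleus held 14 of the 42 UMIs, without which the value was 328 CPM (218 to 474). AT1-gated nuclei had 208 CPM (157 to 271) and 251 CPM (212 to 295), and AT2-gated nuclei 64.0 CPM (42.5 to 92.4) and 78.6 CPM (58.2 to 104). The step from AT2 to AT1 was 3.25-fold (PBS) and 3.19-fold (OVA), with log2 ratios of 1.70 (1.02 to 2.41) and 1.67 (1.20 to 2.17). Ciliated and AT1 did not separate, at 0.72 (-0.09 to 1.49) and 0.52 (-0.01 to 1.02).

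Outside the epithelium, pericyte-gated nuclei had 157 CPM (67.9 to 310) and 102 CPM (59.4 to 163) of Pdgfa. Smooth muscle-gated nuclei, the contractile cells of airways and vessels, had 228 and 129 CPM from 5 and 7 UMIs. Alveolar fibroblasts had 1 UMI (PBS) and 19 UMIs (OVA, 13.8 CPM), so pericytes exceeded them by a log2 ratio of 2.89 (1.85 to 3.91) in the OVA library. ILC2-gated nuclei had 0 and 1 UMI. In 10 of 80 pericyte-gated OVA nuclei and 7 of 34 PBS nuclei Pdgfa and Pdgfrb were found in the same nucleus, which was every Pdgfa-positive pericyte-gated nucleus of the PBS library and 10 of 13 of the OVA library. In AT1-gated nuclei Pdgfa and Vegfa were found together in 30 of 36 (PBS) and 79 of 92 (OVA) Pdgfa-positive nuclei. Thinned to 500 UMIs these were 5 of 8 and 11 of 23, beside the 45.8% and 44.7% of all AT1-gated nuclei with Vegfa at that depth. For Pdgfa and Pdgfrb in pericytes the thinned counts were 3 of 4 and 3 of 7, so no excess of shared nuclei is read from either pair.

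Pdgfc, a ligand chain that is cleaved before it activates its receptor, was low in the compared gates, and AT2-gated nuclei held the most of its UMIs, at 45.7 CPM (27.9 to 70.6, 20 UMIs) and 51.3 CPM (35.1 to 72.5, 32 UMIs). Ciliated-gated nuclei had similar values of 34.4 CPM (2 UMIs) and 51.4 CPM (6 UMIs). AT1-gated nuclei had 15.1 and 10.4 CPM, and the log2 ratio of AT2 over AT1 was 1.59 (0.02 to 3.60) and 2.30 (1.02 to 3.85). Smooth muscle-gated nuclei of the OVA library reached 91.8 CPM from only 5 UMIs in 5 nuclei, against 0 UMIs in the PBS library, so no gate led Pdgfc in both libraries. Mesothelial-gated nuclei, too few to be among the compared gates, had the highest values, with 277 CPM from 1 UMI in 3 PBS nuclei and 399.6 CPM (129.8 to 933) from 5 UMIs in 6 OVA nuclei. In the OVA library AT2 exceeded alveolar fibroblasts by a log2 ratio of 5.15 (3.18 to 8.25).

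Pdgfb and Pdgfd, the remaining ligands, had their highest OVA levels in endothelial-gated nuclei, but a few deep nuclei set those levels. Pdgfd had 1383 CPM (41 UMIs) and 578 CPM (47 UMIs) in endothelial-gated nuclei. A single PBS nucleus of 18531 UMIs held 39 of the 41, and without it 2 UMIs remained (180 CPM, 21.8 to 651). A single OVA nucleus of 37053 UMIs held 27 of the 47, and without it the level was 452 CPM (276 to 697). Pdgfb had 1 UMI in the PBS endothelial gate and 17 in the OVA gate, of which 13 lay in that same OVA nucleus, and without it 4 UMIs remained (90.3 CPM, 24.6 to 231). Outside endothelium, Pdgfb reached 111 CPM (40.7 to 242, 6 UMIs) in the OVA library in a macrophage-like cluster led by C1qa and C1qb. This cluster held 0 UMIs of Pdgfb in its 45 PBS nuclei. The upper limit for 0 UMIs there, given with Flt1 below, lies within the OVA interval, so the libraries do not separate.

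Pdgfra, the receptor that marks alveolar fibroblast lineages, was led by myofibroblast-gated nuclei. These had 1044 CPM (862 to 1253, 115 UMIs) in the PBS library and 1504 CPM (1330 to 1695, 269 UMIs) in the OVA library. Alveolar fibroblast-gated nuclei had 159 CPM (118 to 209) and 142 CPM (123 to 164). Myofibroblasts thus exceeded alveolar fibroblasts 6.58-fold and 10.6-fold, with log2 ratios of 2.72 (2.23 to 3.23) and 3.40 (3.13 to 3.68). An adventitial fibroblast-like cluster lay between them at 318 CPM (242 to 412) and 367 CPM (296 to 449). Of its 55 gated nuclei 39 fell in the alveolar fibroblast gate, so it is not a type apart from that gate. Pericyte-gated nuclei had 0 UMIs (PBS) and 6 UMIs (OVA, 36.0 CPM).

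Pdgfra was found in 52.6% (PBS) and 77.0% (OVA) of myofibroblast-gated nuclei at median depths of 757 and 1486 nuclear-gene UMIs. At 500 UMIs per nucleus the shares were 41.9% (30.5 to 53.9, 74 nuclei) and 48.0% (37.8 to 58.3, 98 nuclei). They were 5.91% and 5.24% in alveolar fibroblasts and 0.707% and 0% in AT2, the epithelial background (2 of 283 and 0 of 256 nuclei, the latter with an upper limit of 1.43%). Nuclei with none of the 8 myofibroblast markers had 44.2 and 36.8 CPM, and the level was already 954 and 926 CPM at 2 markers, below the gate. A myofibroblast-like cluster of 459 and 379 nuclei, which is much wider than the gate, had 1172 CPM (1068 to 1283) and 1310 CPM (1217 to 1408). ILC2-gated nuclei had 49.2 CPM (8 UMIs) and 11.9 CPM (6 UMIs) of Pdgfra.

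Pdgfrb, the receptor of mural cells, was led by pericyte-gated nuclei at 1317 CPM (1021 to 1673, 67 UMIs) and 1031 CPM (883 to 1197, 172 UMIs). Smooth muscle-gated nuclei followed at 365 CPM (158 to 720, 8 UMIs) and 220 CPM (114 to 385, 12 UMIs), and myofibroblast-gated nuclei had 136 CPM (76.2 to 225) and 67.1 CPM (34.7 to 117). The log2 ratio of pericytes over smooth muscle was 1.85 (0.79 to 3.12) and 2.23 (1.38 to 3.21). Alveolar fibroblasts were at the bottom of the stroma with 12.7 and 10.9 CPM, so pericytes, the stromal gate with the least Pdgfra, had the most Pdgfrb.

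Pdgfrb was found in 79.4% and 86.3% of pericyte-gated nuclei, at median depths of 880.5 and 1602, and in 58.1% (39.1 to 75.4, 31 nuclei) and 53.8% (42.2 to 65.2, 78 nuclei) after thinning. In ILC2-gated nuclei the thinned shares were 0.709% and 0%, the latter 0 of 404 nuclei with an upper limit of 0.909%. Pdgfra and Pdgfrb were found together in 0 of 34 (PBS) and 4 of 80 (OVA) pericyte-gated nuclei, the latter being all 4 in which Pdgfra was found. Among myofibroblast-gated nuclei they were found together in 9 of 95 and 9 of 100, which were 9 of the 13 and 9 of the 11 with a Pdgfrb UMI. After thinning, 0 of 2 pericyte-gated OVA nuclei with Pdgfra also had Pdgfrb, and 2 of 4 and 3 of 6 myofibroblast-gated nuclei with Pdgfrb also had Pdgfra. Epithelial gates carried a low level, with 94.6 CPM (PBS) and 27.9 CPM (OVA) in AT1 and 48.0 and 16.0 CPM in AT2. A single PBS nucleus of 12190 UMIs held 12 of the 25 AT1 UMIs, without which AT1 had 51.6 CPM (27.5 to 88.2). AT1-gated nuclei also differed in their mitochondrial share (23.4% PBS and 17.9% OVA) and in median depth (814 and 1615), whose part in this difference was not tested.

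Flt1, the decoy-like VEGF receptor, was highest in endothelial-gated nuclei at 742 CPM (465 to 1124, 22 UMIs) and 1844 CPM (1561 to 2164, 150 UMIs). Without the deepest nucleus of each, which held 14 and 80 of those UMIs, the levels were 720 CPM (311 to 1419) and 1580.5 CPM (1232 to 1997). They stayed above smooth muscle, the next gate, though the PBS intervals overlapped with and without that nucleus. An endothelial-like cluster of 24 (PBS) and 32 (OVA) nuclei, led by Emcn, Ptprb and Cdh5 but also by the haemoglobin gene Hbb-bs, gave 626 CPM (358 to 1016) and 1709 CPM (1369 to 2108) once its 6 and 6 nuclei over 10000 UMIs, which held 91.6% and 90.9% of its UMIs, were left out.

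Flt1 was also found in smooth muscle nuclei and in some immune clusters. Macrophage-gated nuclei had 1 UMI (PBS, 34.9 CPM, 0.884 to 195) and 0 UMIs (OVA, upper limit 55.2 CPM). The PBS interval does not set that gate apart from the macrophage-like clusters below. Pericyte-gated nuclei had 1 and 3 UMIs (19.7 and 18.0 CPM). Smooth muscle-gated nuclei had 228 CPM (5 UMIs) and 147 CPM (8 UMIs), and a smooth muscle-like cluster had 267 CPM (161 to 417) and 106 CPM (54.8 to 185). Among the 4 macrophage-like clusters, the one led by Ear2, Sh2d1b1 and Trem3 had 112 CPM (85.6 to 143, 62 UMIs) and 91.6 CPM (63.0 to 129, 33 UMIs), and the one led by Nrg4, Fgf13 and Cd101 had 72.4 CPM (39.6 to 121) and 75.4 CPM (61.7 to 91.3). The cluster led by Atp6v0d2, Inhba, Spp1 and Car4 was lower, with 0 UMIs in the PBS library (upper limit 23.8 CPM) and 12.7 CPM (2.61 to 37.1) in the OVA library. The first of these exceeded it by a log2 ratio of 2.85 (1.18 to 5.20) in the OVA library. A cluster with C1q genes at its head had 0 and 1 UMI of Flt1, and its intervals, which reach 136 and 103 CPM, do not separate it from the others. The first of these clusters had 3 of the 8 macrophage markers raised and held 802 PBS against 408 OVA nuclei, while the Nrg4 cluster held 145 against 815, so cluster and library were partly bound together. A monocyte-like cluster had 81.4 and 71.8 CPM from 4 and 10 UMIs.

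**Figure D3:**
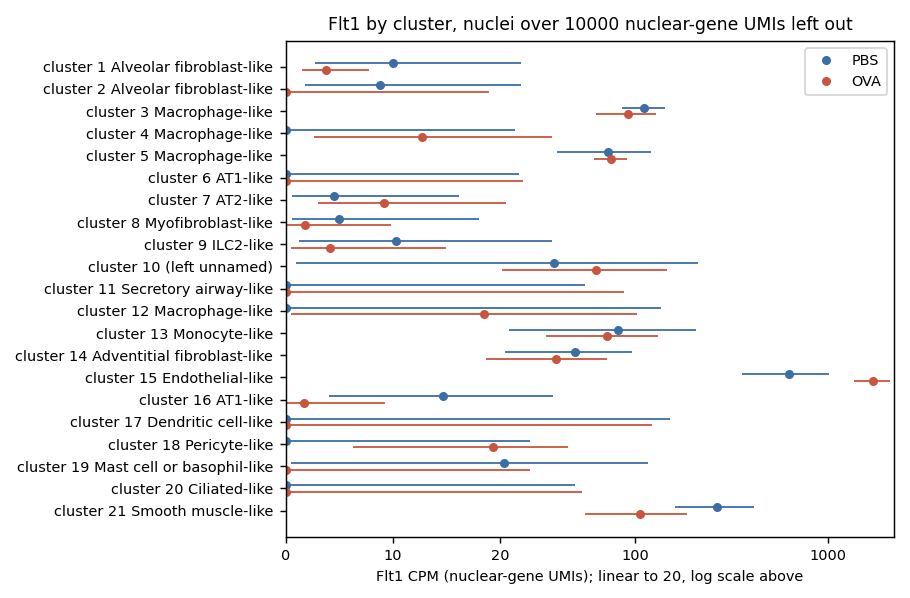
Flt1 level (x axis, CPM of nuclear-gene UMIs, linear to 20 and logarithmic above, with exact 95% Poisson intervals) in the clusters of at least 20000 nuclear-gene UMIs per library (y axis), for the PBS and OVA libraries, with nuclei over 10000 UMIs left out. The endothelial-like cluster is highest in both libraries, followed by smooth muscle-like nuclei and by the macrophage-like cluster 3. Cluster 10 met the marker rule for B cells and counts as such among the named clusters, but carries no name here because its leading genes mix B cell and T or NK cell genes.

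Kdr, which encodes the main signalling receptor for VEGF-A, had 169 CPM (54.8 to 394, 5 UMIs) and 615 CPM (456 to 810, 50 UMIs) in endothelial-gated nuclei, of which a single OVA nucleus held 27 UMIs (519 CPM without it, 329 to 779). A single PBS nucleus held 3 of the 5 UMIs, and without it the PBS level was 91.1 CPM (11.04 to 329). Secretory airway-gated nuclei, the club cell class of the airway, came next with 136 CPM (4 UMIs) and 337 CPM (184 to 566, 14 UMIs). Without the single PBS endothelial nucleus the airway gate led in that library, as it did with the joint filter on counts. The endothelial lead over them was not resolved in either library, with log2 ratios of 0.32 (-1.90 to 2.65) and 0.87 (-0.01 to 1.84). The airway value rested on 3 and 6 nuclei, and a single OVA nucleus held 7 of the 14 UMIs. A secretory airway-like cluster of 38 and 18 nuclei, led by Scgb3a2 and Scgb1a1, had 193 CPM (103 to 331, 13 UMIs) and 339 CPM (201 to 535, 18 UMIs). The 2 alveolar epithelial gates had at most 11.4 CPM. Ciliated-gated nuclei of the OVA library had 10 Kdr UMIs, all in a single nucleus of 31492 UMIs. Whether endothelial RNA reached the airway nuclei was not tested. Kdr and Flt1 were found together in 2 of 6 and 9 of 15 endothelial-gated nuclei.

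Flt4, the receptor for VEGF-C and VEGF-D, had 2 and 4 UMIs in endothelial-gated nuclei (67.5 and 49.2 CPM) and 21 and 39 UMIs in all kept nuclei. No nucleus was gated as lymphatic endothelium in either library, so the type in which Flt4 is best known was not covered. In the endothelial-like cluster, nuclei up to 10000 UMIs carried 648 CPM (446 to 910) of Kdr and 393 CPM (240 to 607) of Pdgfd in the OVA library, and 195 CPM (63.5 to 456) and 274 CPM (110 to 564) in the PBS library, which rest on 33, 20, 5 and 7 UMIs.

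The libraries were compared where a gene had at least 100 UMIs over both libraries in a gate of at least 50 nuclei per library. This left 6 of 50 pairs of gene and gate, and a difference was called where the ratio was at least 2-fold and its interval left out equality. None of the 6 was called higher or lower in the OVA library. Among all genes tested in the same way, 0.957% (AT1), 2.66% (AT2), 1.31% (alveolar fibroblast) and 1.33% (myofibroblast) were called higher and 0.179%, 0.332%, 0.417% and 1.7% lower. In ILC2-gated nuclei, where none of the 10 genes had 100 UMIs, 6.58% of genes were called higher and 0.619% lower. Vegfa had log2 ratios of OVA over PBS of -0.01 (-0.21 to 0.19) in AT1, 0.46 (0.03 to 0.90) in AT2 and 0.00 (-0.49 to 0.53) in alveolar fibroblasts. The interval in AT1 leaves out a change of 2-fold in either direction between these libraries. Pdgfa in AT1 was 0.27 (-0.19 to 0.74).

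Pdgfra was 0.53 (0.21 to 0.86) in myofibroblasts and -0.16 (-0.61 to 0.32) in alveolar fibroblasts. The median log2 ratio of all genes of at least 100 UMIs was 0.12 in AT1, 0.15 in AT2, 0.08 in alveolar fibroblasts and 0.12 in myofibroblasts. The higher Pdgfra of myofibroblast-gated OVA nuclei was smaller in the wider gate of at least 2 markers (0.19), in the myofibroblast-like cluster (0.16) and after thinning (0.14), and the share of nuclei with Pdgfra at matched depth had intervals that overlap. No other pair in these 5 gates had 100 UMIs. Pdgfrb in pericytes and Flt1 in endothelium had more, but their gates held 34 and 6 PBS nuclei, under the minimum of 50. With a minimum of 30 UMIs 2 further pairs were called lower in the OVA library, Pdgfrb in AT1 (-1.76, -2.77 to -0.80) and in AT2 (-1.58, -2.83 to -0.43), against 2.11% and 1.9% of genes. The call in AT1 rested on a single PBS nucleus. Without the deep nucleus described above AT1 had 51.6 (PBS) against 27.9 (OVA) CPM, a step of less than 2-fold, so that call was lost. In AT2 a single PBS nucleus held 7 of the 21 UMIs. Without it the levels were 32.4 CPM (17.7 to 54.3, 14 UMIs, PBS) and 16.0 CPM (7.69 to 29.5, 10 UMIs, OVA). These intervals overlap, and the UMIs together fall under the minimum of 30, so that call was lost as well.

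**Figure D4:**
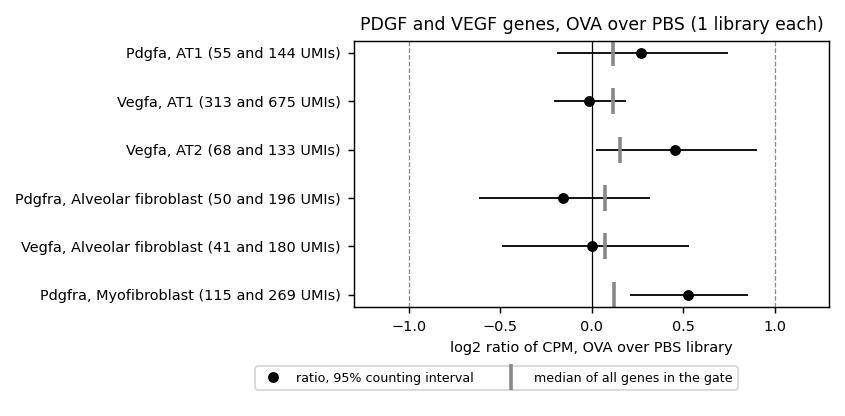
Log2 ratio of CPM, OVA over PBS library (x axis), for the 6 pairs of gene and gate with at least 100 UMIs (y axis), with 95% counting intervals, the median of all genes of the gate in grey and dashed lines at 2-fold. No point reaches 2-fold, and the intervals of Pdgfra in myofibroblasts and of Vegfa in AT2 lie to the right of 0.

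Accessibility was read as transposition counts in a peak per 1000000 counts in all peaks of the gate, a unit written below as CPM of accessibility. At the Vegfa start the AT1, AT2, alveolar fibroblast and ILC2 gates were alike. Among all compared gates the endothelial gate, of 6 (PBS) and 15 (OVA) nuclei, led by peaks within 1 kb of that start in both libraries. The peak over the start had 40.4 and 41.3 CPM of accessibility in AT1, 28.7 and 33.0 in AT2, 31.8 and 37.7 in alveolar fibroblasts and 41.2 and 35.3 in ILC2s (PBS and OVA), although the RNA level was 1185 and 1176 CPM in AT1 and 43.0 and 45.7 CPM in ILC2s. Of the 9 genes with 100 UMIs only Pdgfd had the same leading gate by RNA and by peaks within 1 kb of the start in both libraries, against 4.76% of 10369 genes, and its 2 and 4 endothelial counts are few.

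Peaks far from the Vegfa start differed between gates. Within 50 kb of the gene 20 peaks were called in each library, 17 of them in both. Of the 13 with at least 30 counts in each library 10 had the same leading gate in both, which was AT1 for 4, alveolar fibroblast for 4, AT2 for 1 and ILC2 for 1. The share over all peaks is not given, so 10 of 13 is not read as particular to Vegfa. The peaks named next were chosen after their values had been seen. A group of 3 peaks 59.1 to 62.7 kb downstream of the start, outside annotated genes (chr17:45969225-45970133, chr17:45970619-45971437 and chr17:45972842-45973704 in the PBS library), was open in alveolar epithelium. The outermost had 50.5 (36.8 to 67.5) and 61.4 (46.6 to 79.4) CPM of accessibility in AT1, 20.1 and 13.6 in AT2, and at most 1.38 in alveolar fibroblasts and ILC2s. Its log2 ratio of AT1 over AT2 was 1.33 (0.76 to 1.88) and 2.17 (1.56 to 2.80).

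The innermost of the group did not separate AT1 from AT2, at 0.26 (-0.29 to 0.78) and 0.39 (-0.22 to 0.97). Alveolar fibroblasts had other peaks near Vegfa. A peak 44.3 kb downstream (chr17:45987618-45988532 in the PBS library) had 33.1 and 42.7 CPM of accessibility in alveolar fibroblasts and at most 4.94 in the other 4 gates. A peak 31.2 to 31.3 kb upstream had 25.5 and 29.0 CPM of accessibility in alveolar fibroblasts, with 5.61 and 2.12 in AT1. A peak 41.7 kb upstream, which overlaps the gene model AC110562.2, was shared by AT2 (44.4 and 41.6) and ILC2s (39.6 and 45.3). No link between any of these peaks and Vegfa RNA was measured.

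**Figure D5:**
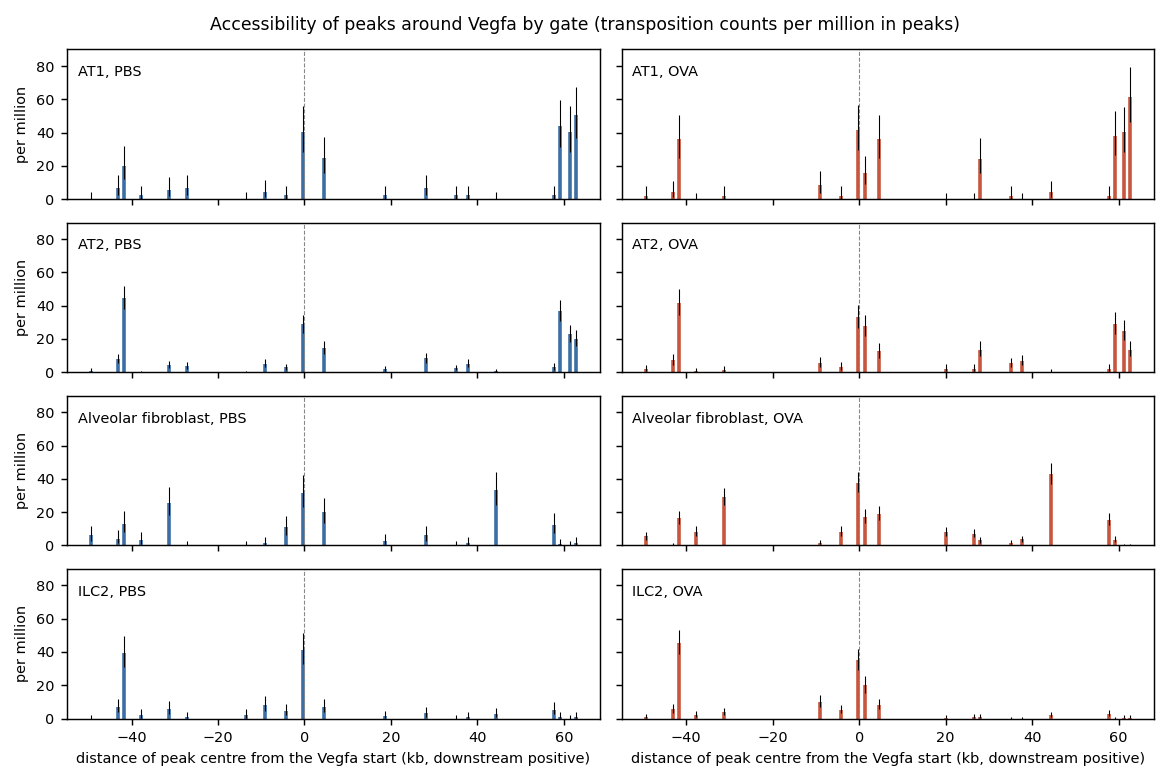
Transposition counts per 1000000 in peaks (y axis) for each peak called around Vegfa, placed by the distance of its centre from the Vegfa start in kb (x axis, downstream positive), in AT1-, AT2-, alveolar fibroblast- and ILC2-gated nuclei of the PBS (left) and OVA (right) libraries, with exact 95% Poisson intervals in black. The start peak is present in all 4 gates, the peaks near 60 kb in AT1 and AT2, and those at 44.3 kb and 31.2 kb on the other side in alveolar fibroblasts.

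Pdgfa differed at its start. Over the peaks within 1 kb ILC2-gated nuclei had 12.3 (7.81 to 18.5) and 15.8 (11.9 to 20.5) CPM of accessibility, AT1 90.9 (72.2 to 113) and 126 (104 to 151), and AT2 86.2 and 100.1. The stroma was not closed there, with 64.9 and 59.1 in alveolar fibroblasts, in which Pdgfa RNA was at most 13.8 CPM, and 153 (106 to 214) and 92.3 (71.5 to 117) in pericytes. These peaks also overlap the gene model 6330403L08Rik. For Pdgfra the peaks within 1 kb gave 85.6 and 50.5 CPM of accessibility in alveolar fibroblasts, 90.9 and 35.8 in myofibroblasts and 33.7 and 23.3 in AT1, over 3476 (PBS) and 1745 (OVA) bases of called peaks, so these values are comparable only within a library. The several-fold RNA step from alveolar fibroblasts to myofibroblasts was not seen in them. The peak over the Pdgfrb start had 17.8 to 33.1 CPM of accessibility in alveolar fibroblasts, myofibroblasts and pericytes and 5.74 to 10.7 in ILC2s, AT1 and AT2.

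A list of 27 further genes of both pathways was followed in the same way, and 26 of them had at least 100 UMIs. The same gate led 16 of 26 in both libraries, and 6 of 26 at least 2-fold, beside the 34.6% and 6.97% of all genes given above. None was called between libraries in the gates compared. Among the ligands, Vegfd, a ligand of VEGFR3, had 251 CPM (198 to 312) and 247 CPM (222 to 275) in alveolar fibroblast-gated nuclei, and Vegfc, its relative, had 270 CPM (8 UMIs) and 184 CPM (15 UMIs) in endothelial-gated nuclei. Vegfb and Pgf, ligands of VEGFR1, stayed low, with 45 and 67 UMIs and 20 and 28 UMIs in all kept nuclei.

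The co-receptor Nrp1 had 540 CPM (309 to 877) and 1082 CPM (868 to 1333) in endothelial-gated nuclei and 375 CPM (319 to 437) and 422 CPM (372 to 476) in AT2. Its relative Nrp2 had 276 CPM (217 to 347) and 266 CPM (226 to 312) in AT1. The other 4 genes led at least 2-fold, named here because of their values, were Furin (a ligand-processing protease) in ILC2s at 658 and 999.9 CPM, Plat in pericytes at 491 and 474 CPM, and the receptor phosphatases Ptprb in endothelium (1653 and 1131 CPM) and Ptprj in macrophages (838 and 1390 CPM).

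The genes whose levels ran most like each ligand or receptor were found by Pearson correlation of log2(CPM + 10) over 10 points, the 5 gates of at least 50 nuclei in both libraries. The points of a library share its depth, and the correlations describe these points only. Vegfa ran most like Fam189a2 (0.99) and Rubcn (0.98), Pdgfa like Osbpl6 (0.99) and Tjp1 (0.98), and Pdgfra like Tbx3 (0.99) and Mmp2 (0.98). Pdgfrb, Pdgfc, Pdgfb, Pdgfd, Kdr, Flt1 and Flt4 had 2 to 123 UMIs in these gates, and their matches are not named. Over all 11 compared gates (22 points), a set added after the data had been seen, Pdgfrb ran most like Gucy1b1 (0.96) and Gucy1a1 (0.96), the subunits of soluble guanylate cyclase, and Flt1 like Rasip1 (0.88) and Rasgrp3 (0.86).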

How the data were processed

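Single-nucleus RNA and accessible chromatin were measured in the same nuclei of 2 fetal lung libraries. The authors deposited raw counts from Cell Ranger ARC 2.0.1 on mm10: whole numbers of UMIs per gene and transposition counts per peak, where each library had its own peak set. They were not normalized. Barcodes with at least 200 genes and at most 60% mitochondrial UMIs passed, the study's own limits for gene expression. Doublets were called from 2 simulated doublets per nucleus at 0.8% per 1000 barcodes (293 PBS nuclei, 6.41%, and 250 OVA nuclei, 4.77%). Called nuclei were removed, and the remaining deep nuclei (21 PBS and 28 OVA nuclei over 10000 nuclear-gene UMIs, up to 99130 and 199289) may include doublets.

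The UMIs of a gate's nuclei were added up and divided by nuclear-gene UMIs (CPM). Intervals were exact Poisson for levels, Clopper-Pearson for shares and conditional binomial for ratios, at 95%. A ratio was called at 2-fold with an interval that left out equality, for genes of at least 100 UMIs. Nuclei were thinned once to 500 UMIs with seed 1. Leiden clusters (3000 genes, 30 components, 15 neighbours, resolution 1) were named "X-like" from the same 24 lists of 8 markers. A name needed 3 markers raised 1.5-fold and detected in 5% of nuclei, and a mean log2 lead of 0.3. That lead, the gate minimum of 20000 UMIs and the limit of 10000 UMIs were set after gates and clusters had been seen. All 10 genes are named. Of the pathway list Vegfb, Vegfc, Vegfd, Pgf, Nrp1, Nrp2 and any gene called between libraries are named, and per gene the 2 most similar genes of at least 200 UMIs. Genes, lists and markers were chosen with earlier results of these data known.

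Alternatives were looser and stricter gates, named clusters, doublets kept, at most 20% mitochondrial UMIs, a joint filter on counts, other denominators, centring, thinning, other folds and minimums, and wider peak windows. In data simulated from these libraries 99 of 99 genes changed 4-fold and 93 of 94 changed 3-fold were called in AT1. Those counts were Poisson draws with no extra spread between nuclei, from sums in which doublet calls were kept. As only folds of 3 and 4 were planted, the result does not tell how changes near 2-fold were called. Promoter windows were RefSeq's, and no window was used for 2 genes. Tools were Python 3.11.15, numpy 2.4.6, scipy 1.17.1, pandas 2.3.3, scikit-learn 1.9.0, scanpy 1.11.5 and matplotlib 3.10.9. The study's adult libraries were not used here.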

Additional observations from a re-analysis of the deposited data

How the results depend on the processing

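No paired analysis was possible because the groups had a single library each, and no replicate could be left out. Of 54 alternatives for the counts 42 stayed within 1.5 times the value in the text, and of 54 for single ratios 51 stayed within their counting interval. The 42 include every count of called pairs that stayed at 0. A count could also stay close while its genes or leading gates changed, as for Pdgfrb, led by myofibroblasts after thinning. The number of genes led by a gate at least 2-fold in both libraries (5) was 3 with named clusters, 3 at no more than 20% mitochondrial UMIs, 3 at a fold of 4, 2 after thinning and, in an alternative added after the data had been seen, 3 without nuclei over 10000 UMIs. Without those nuclei the endothelial gate was too small to be compared, and Flt1 was led by smooth muscle and Kdr by secretory airway nuclei. The endothelial gate was also not among those compared at no more than 20% mitochondrial UMIs. After thinning neither the endothelial nor the pericyte gate was compared. A fold of 4 is a stricter cut. The number of genes led by the same gate in RNA and promoter accessibility (1) was 3 with the loose gate, 2 with doublet calls kept, 2 with the joint filter, 2 over the gene body, 0 with the strict gate and 0 at no more than 20% mitochondrial UMIs. The number of pairs called lower in the OVA library (0) was 2 at a minimum of 30 UMIs. The cause of the other moves was not tested. Across alternatives the log2 ratio of Vegfa in AT1 ran from -0.19 to 0.09, in AT2 from 0.07 to 0.68 and in alveolar fibroblasts from -0.07 to 0.23, that of Pdgfa in AT1 from 0.09 to 0.58, and that of Pdgfra from -0.34 to -0.03 in alveolar fibroblasts and from 0.14 to 0.69 in myofibroblasts. Depth limits what can be seen: Flt4, Pdgfb and Pdgfc were too sparse for a comparison between libraries, and the endothelial levels rest on few nuclei.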
